A study of Mus musculus with 18 samples.

Results

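The genes of mitosis described here were the 59 genes whose symbols, in the authors' deposited gene lists for mouse heart, match a fixed set of names: mitotic cyclins and Cdk1, checkpoint and anaphase genes, centromere and kinetochore proteins, Aurora and Polo-like kinases, spindle kinesins, cytokinesis factors and condensins. Those lists hold the probes for which the authors report p of at most 0.05 between hypoxia and normoxia at 1 age, 4351 probes at postnatal day 8 (P8) and 1524 at postnatal day 30 (P30). All 59 genes came through the P8 list, and 8 of them (Tpx2, Aspm, Nuf2, Ncaph, Ube2c, Smc2, Bub1b and Ccna2) are in the P30 list too. Every one has 1 probe among the 4704 probes with a value per sample. Foxm1 shares its probe with 4933413G19Rik, so these cannot be told apart, and Sgo1 is listed as Sgol1. A place in the P8 list required a difference at P8 but set no direction (in the authors' deposited table the highest p of the 59 genes is 0.0469, for Ncapg), so counts at P8 are given as a description.

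Hearts of mice in normal air were compared with hearts of mice in hypoxia at 11% oxygen, as a model for cyanotic disease of the heart present from birth. Clariom S arrays measured the RNA, with 1 probe (a set of oligonucleotides) for each transcript cluster. The groups were 4 normoxic samples at P8 (numbers 13, 22, 23 and 24), 5 hypoxic samples at P8 (4 to 8), 4 normoxic samples at P30 (2 to 5) and 5 hypoxic samples at P30 (1 to 5). The labels used here give no strain or genotype, nor how long the P30 mice were kept in hypoxia. They also do not state that samples of a group are different mice, so the p-values speak only of the spread among samples. The question named in the series title is whether perinatal hypoxia delays maturation of the heart.

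A cell enters mitosis when cyclins A and B switch on the kinase CDK1, with Polo-like and Aurora kinases as further drivers. Chromosomes condense, their kinetochores attach to the spindle, and a checkpoint holds back the anaphase-promoting complex until every kinetochore is attached. That complex, with its activator Cdc20 and ubiquitin-conjugating enzymes Ube2c and Ube2s, then marks securin and the cyclins for destruction, sister chromatids part, and the cell divides. In mice, heart muscle cells still replicate DNA in the first days after birth, many of them ending with 2 nuclei, and then leave the cell cycle, while other heart cells and blood cells can go on dividing. Most genes of this set are transcribed mainly in G2 and mitosis and are often read as a sign of dividing cells. In RNA from whole tissue, fewer cells of a type and less RNA per cell cannot be told apart.

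At P8 the mitosis genes had higher mean signals in hypoxic than in normoxic hearts, and by P30 they were low in both. The median signal over the 59 genes was 7.15, 5.52, 5.73 and 5.82 on the log2 scale in normoxic samples 13, 22, 23 and 24, and 7.55, 7.30, 7.51, 7.84 and 7.17 in hypoxic samples 4 to 8. The groups did not overlap in this median, but normoxic sample 13 lay just under the lowest hypoxic sample, while the other normoxic samples lay far below it. At P30 the same median was 4.50 to 5.04 in the 4 normoxic samples and 4.22 to 4.60 in the 5 hypoxic samples, which overlap and all lie below every P8 sample.

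**Figure D1:**
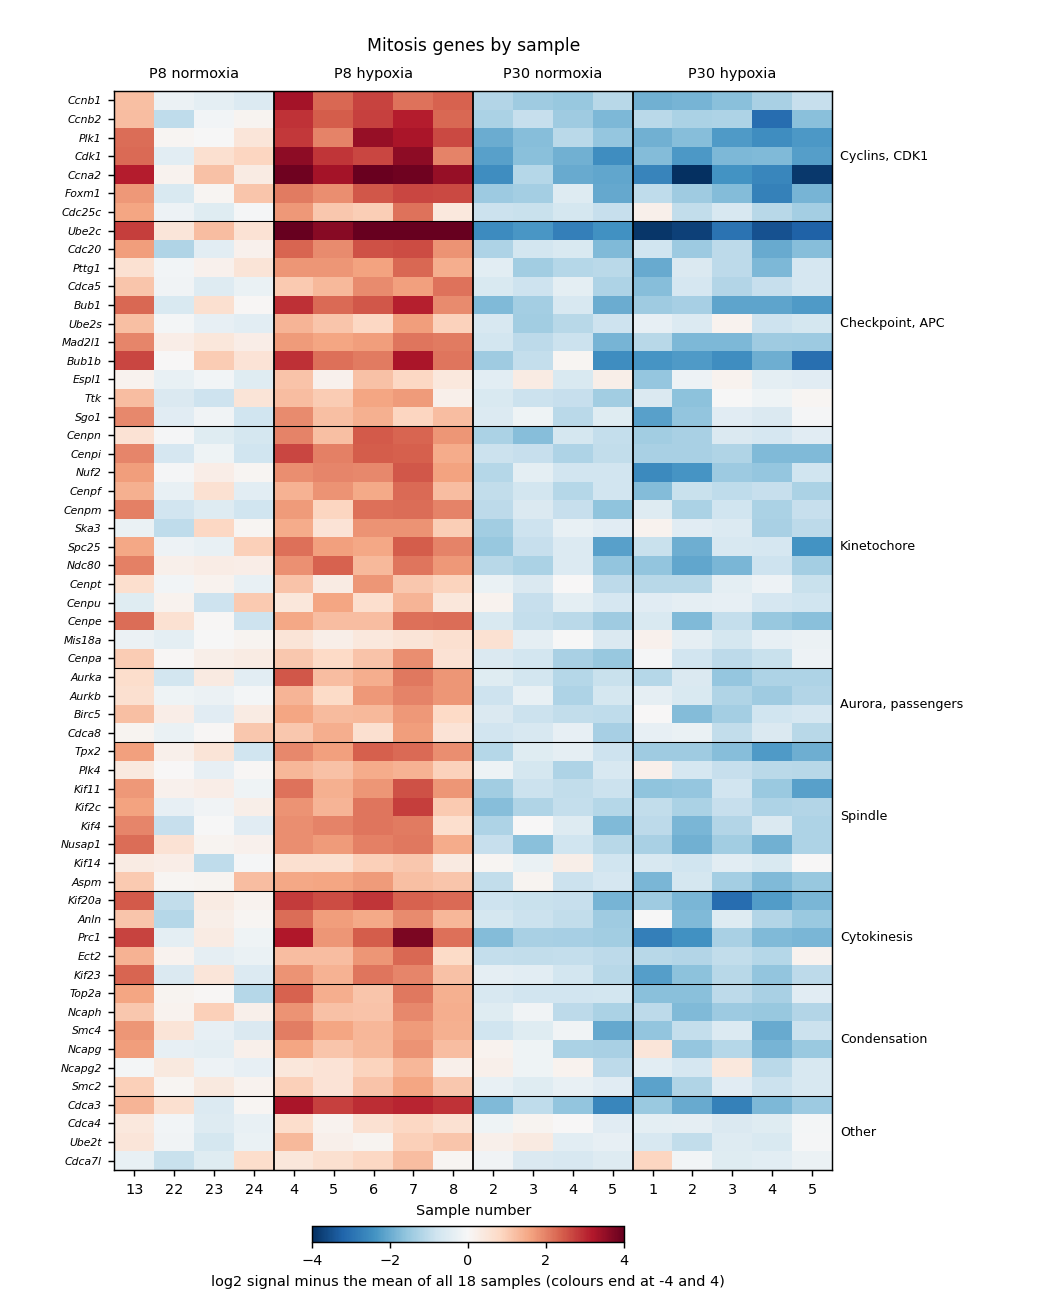
Signal of 58 of the 59 mitosis genes in the 18 samples, as log2 signal minus the gene's mean over all samples (red higher, blue lower, colours ending at -4 and 4), with genes grouped by role and samples by group. The 5 hypoxic P8 columns are red or near white, normoxic P8 sample 13 is closer to them than samples 22, 23 and 24 are, and the P30 columns are mostly blue.

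Of the 59 genes, 29 were called higher in hypoxia at P8 (limma, Benjamini-Hochberg adjusted p of at most 0.05 over the array's 22206 probes) and none lower. For comparison, 15.2% of the 4704 probes of the value table were called higher and 5.57% lower. The higher ones are 3.22% of the array when every probe outside the table counts as not called. All 59 genes had a higher mean in hypoxia, against 58.52% of the probes in the table, and all 59 are higher in the authors' deposited P8 list, where 51.48% of the probes are. The median log2 difference was 1.32 (2.49-fold), from 0.59 to 3.19, beside a median of 0.18 over the table. In 18 genes every hypoxic P8 sample lay above every normoxic one, as in 16.4% of the probes of the table. These shares describe genes that entered through this contrast and are no test of the set.

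Normoxic sample 13 sets much of the spread. It had the highest normoxic P8 value in 52 of the 59 genes, lay above the mean of the other normoxic samples by a median of 1.56, and reached or passed the lowest hypoxic value in 35 genes. How often sample 13 stood out in this way over the other probes of the table was not counted, so these counts describe the 59 genes alone. The median SD over the genes was 0.862 in P8 normoxia and 0.384 without sample 13, against 0.429 in P8 hypoxia. Leaving sample 13 out raised the count at P8 from 29 to 47 genes, 28 of them shared, and the median difference to 1.74, while 13.3% of the table was called higher in that fit. Leaving out normoxic sample 22, the lowest, reduced the count to 16, beside 10.1% of the table. All hypoxic samples lay above normoxic samples 22, 23 and 24 in 52 genes, as in 21.7% of the table.

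The genes that kept sample 13 apart from hypoxia were 24, among them Ube2c, Ccnb1, Ccnb2, Ccna2, Cdca3, Aurka, Aurkb, Cdc20, Pttg1, Foxm1, Cenpn, Anln and Plk4. For these, sample 13 stayed below all 5 hypoxic samples. The 35 genes in which it reached the hypoxic range include 9 of the 14 kinetochore genes, 4 of the 5 cytokinesis genes and 4 of the 6 condensation genes. Among the cyclins, Cdk1 and their activators it did so in 3 of 7, namely Plk1, Cdk1 and Cdc25c. This division was read off the values and was not tested, and it was not counted over the other probes of the table.

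**Figure D2:**
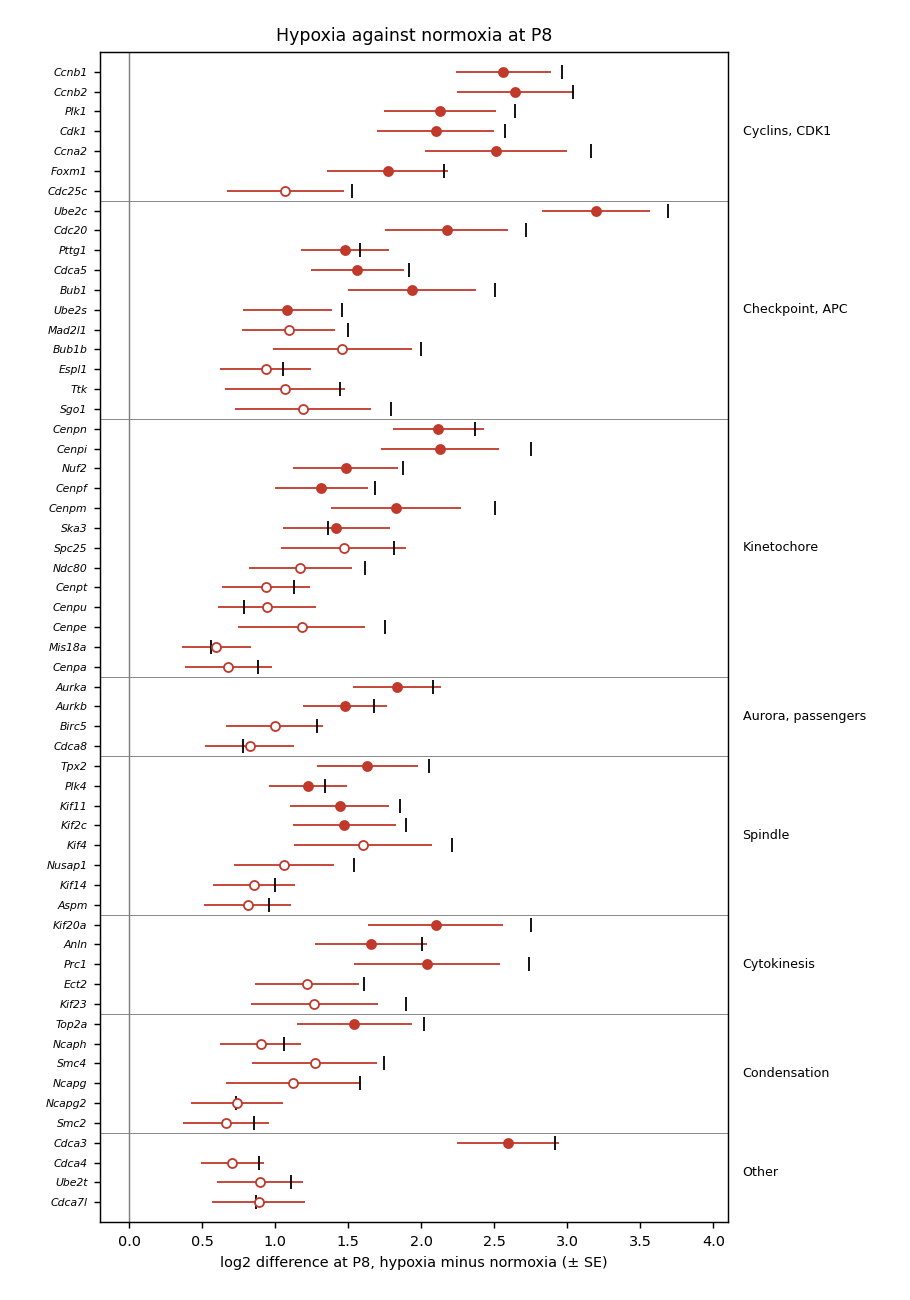
Difference between hypoxia and normoxia at P8 for 58 of the 59 genes, in log2 units with its standard error, by role (filled circles, called; open circles, not called), and the same difference without normoxic sample 13 (black ticks). All 58 differences lie above 0, and most ticks lie to the right of their circles.

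Cyclins, CDK1 and its activators had the largest median difference at P8 of the 8 roles, 2.13, with 6 of 7 genes called. Cyclin B1, which activates CDK1 at entry into mitosis, had Ccnb1 signals of 7.63, 6.18, 6.04 and 5.86 in normoxic samples 13, 22, 23 and 24 and of 9.74, 8.72, 9.12, 8.58 and 8.78 in hypoxic samples 4 to 8. No normoxic sample reached the hypoxic range, and the difference was 2.56 ± 0.33 (SE), 5.90-fold, with adjusted p = 1.31e-04. Cyclin B2, its close relative, had Ccnb2 signals of 8.27, 6.01, 6.93 and 7.15 against 9.93, 9.45, 9.78, 10.19 and 9.32, again with no overlap and a difference of 2.64 ± 0.40 (adjusted p = 6.52e-04).

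Cyclin A2, which acts in S phase and G2, had Ccna2 signals of 11.70, 8.68, 9.73 and 8.88 in normoxia and 12.43, 11.87, 12.51, 12.44 and 12.04 in hypoxia. Sample 13 lay just below the lowest hypoxic sample and far above the other normoxic ones, and the difference of 2.51 ± 0.49 had adjusted p = 0.00458. For Cdk1 itself the signals were 7.34, 4.64, 5.73 and 5.94 against 8.65, 7.94, 7.75, 8.64 and 7.07, so that sample 13 passed hypoxic sample 8. Its difference was 2.10 ± 0.40 (adjusted p = 0.00403), and its call was lost when only the P8 groups were fitted (adjusted p = 0.0502).

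Polo-like kinase 1, which acts with CDK1 from mitotic entry to cytokinesis, had Plk1 signals of 9.11, 6.94, 6.85 and 7.36 in normoxia and 9.68, 8.83, 10.34, 10.12 and 9.50 in hypoxia. Sample 13 was above hypoxic sample 5, and the difference was 2.13 ± 0.38 (adjusted p = 0.0027). The probe of Foxm1, a transcription factor of G2 and mitosis genes, gave 6.90, 4.55, 5.26 and 6.29 against 7.26, 7.03, 7.66, 7.84 and 7.81. These did not overlap, and the difference of 1.77 ± 0.42 had adjusted p = 0.0171. The Foxm1 call was lost under quantile normalization, after centring the arrays, in the fit of the P8 groups alone and without normoxic sample 22 or 23 (highest adjusted p 0.0869). Cdc25c, a phosphatase that activates CDK1, was not called (1.07 ± 0.40, adjusted p = 0.177).

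In the spindle checkpoint and anaphase-promoting complex group, 6 of 11 genes were called at P8, with a median difference of 1.46. Ube2c, the ubiquitin-conjugating enzyme that starts chains for the anaphase-promoting complex, had the largest difference of all 59 genes. Its signals were 10.38, 8.11, 8.85 and 8.21 in normoxia and 12.68, 11.27, 12.25, 12.28 and 11.93 in hypoxia, so that even sample 13 stayed below the lowest hypoxic sample. The difference was 3.19 ± 0.37, 9.15-fold, with adjusted p = 5.24e-05. Cdc20, the activator of that complex, gave 6.08, 3.18, 3.98 and 4.56 against 6.72, 6.29, 6.93, 7.00 and 6.18. Sample 13 lay just below hypoxic sample 8, and the difference was 2.17 ± 0.42 (adjusted p = 0.00459).

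Pttg1 (securin, which holds separase inactive), Cdca5 (sororin, which protects sister cohesion), Bub1 (a checkpoint kinase) and Ube2s (which extends the ubiquitin chains) were called too, with differences of 1.48, 1.56, 1.94 and 1.08. The genes of this group that were not called were Mad2l1, the checkpoint protein MAD2, at 1.09 (adjusted p = 0.0554), Bub1b at 1.46 (0.101), Espl1, which is separase, at 0.94 (0.108), the checkpoint kinase Ttk at 1.06 (0.209) and the cohesion protector Sgo1 at 1.19 (0.225). Without sample 13, 10 of the 11 genes were called.

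Among 14 centromere and kinetochore genes, 6 were called (Cenpn, Cenpi, Nuf2, Cenpf, Cenpm and Ska3) and the median difference was 1.25. Cenpn, which binds the centromeric nucleosome, gave 5.56, 4.92, 4.48 and 4.26 in normoxia and 6.95, 6.18, 7.43, 7.30 and 6.75 in hypoxia. The samples did not overlap, and the difference was 2.12 ± 0.31 (adjusted p = 5.00e-04). Cenpi, another protein of the inner kinetochore, gave 7.24, 4.63, 5.11 and 4.48 against 7.97, 7.30, 7.72, 7.69 and 6.77, and sample 13 passed hypoxic sample 8. Its difference of 2.13 ± 0.40 had adjusted p = 0.00381, and 0.052 in the fit of the P8 groups alone.

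Parts of the outer kinetochore that bind microtubules differed in their calls. Nuf2 was called (1.48, adjusted p = 0.0198), while its partners in the same complex, Spc25 (1.47, 0.0567) and Ndc80 (1.17, 0.0672), were not. Cenpa, the histone H3 variant that marks the centromere, had one of the smaller differences. Its signals were 10.56, 9.57, 9.78 and 9.87 in normoxia and 10.60, 10.34, 10.67, 11.39 and 10.12 in hypoxia, a difference of 0.68 ± 0.30 that was not called (adjusted p = 0.332). The smallest difference of the 59 genes, 0.59, was that of Mis18a, which helps load Cenpa.

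Both Aurora kinases were called, out of 4 genes of the Aurora and chromosomal passenger group. Aurora A, which works at spindle poles, had Aurka signals of 6.12, 4.66, 5.76 and 4.99 in normoxia and 7.90, 6.65, 6.85, 7.51 and 7.17 in hypoxia, with no overlap and a difference of 1.83 ± 0.30 (adjusted p = 0.00139). Aurora B, the kinase of the passenger complex, had Aurkb signals of 6.58, 5.77, 5.72 and 5.87 against 7.29, 6.70, 7.68, 7.93 and 7.70. Again the groups did not overlap, and the difference was 1.48 ± 0.29 (adjusted p = 0.00485). Birc5 (survivin), a passenger protein, gave 7.13, 6.17, 5.47 and 6.25 against 7.49, 7.19, 7.22, 7.65 and 6.71, which overlap, and the difference of 1.00 ± 0.33 was not called (adjusted p = 0.109), nor was Cdca8 (borealin) at 0.82.

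Of 8 spindle genes, 4 were called. Tpx2, which activates Aurora A and helps form the spindle, gave 8.26, 6.81, 7.13 and 5.82 in normoxia and 8.54, 8.26, 9.0, 8.89 and 8.49 in hypoxia. Sample 13 equalled the lowest hypoxic sample, and the difference was 1.63 ± 0.35 (adjusted p = 0.00908), with adjusted p = 0.0628 in the fit of the P8 groups alone. Plk4, which starts centriole duplication, gave 5.59, 5.24, 4.88 and 5.27 against 6.53, 6.38, 6.71, 6.59 and 6.14 without overlap. Its difference of 1.23 ± 0.27 (adjusted p = 0.0113) was not called after quantile normalization or centring (highest adjusted p 0.142). The motors Kif11 and Kif2c were called at 1.44 and 1.47, whereas Kif4 (1.60, adjusted p = 0.0606), Nusap1, Kif14 and Aspm were not.

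In cytokinesis, 3 of 5 genes were called and all 5 were when sample 13 was left out. Kif20a, a kinesin of the midzone, gave 8.67, 5.26, 6.57 and 6.38 in normoxia and 9.04, 8.85, 9.10, 8.60 and 8.50 in hypoxia. Sample 13 was within the hypoxic range, and the difference of 2.10 ± 0.46 (adjusted p = 0.0119) was not called in the fit of the P8 groups alone or without normoxic sample 22 (highest adjusted p 0.065). Anillin, a scaffold of the contractile ring, had Anln signals of 6.97, 4.71, 6.10 and 5.92 against 8.08, 7.54, 7.37, 7.75 and 7.17, with no overlap. Its difference was 1.66 ± 0.38 (adjusted p = 0.0156), and its call was lost under 5 of 25 alternatives (highest adjusted p 0.0956).

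Prc1, which bundles midzone microtubules, was called at 2.04 (adjusted p = 0.0222), and Ect2 and Kif23, which position the ring, were not at 1.22 and 1.27. Only Top2a, the topoisomerase that untangles chromosomes, was called out of 6 condensation genes. It gave 8.14, 6.65, 6.59 and 5.41 in normoxia and 8.91, 8.01, 7.65, 8.65 and 7.97 in hypoxia, a difference of 1.54 ± 0.40 (adjusted p = 0.0281) whose call was lost under 9 of 25 alternatives. The condensin subunits Ncaph (0.90, adjusted p = 0.0741), Smc4, Ncapg, Ncapg2 and Smc2 had differences of 0.66 to 1.27 and were not called.

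Ncaph gave 6.63, 5.70, 6.51 and 5.75 against 7.35, 6.72, 6.69, 7.48 and 7.00, so its groups did not overlap although it was not called. Of the 4 genes left, Cdca3, a trigger of mitotic entry that is degraded in G1, was called. Its signals were 6.82, 6.11, 4.93 and 5.54 in normoxia and 8.72, 8.21, 8.42, 8.51 and 8.36 in hypoxia, where the 5 samples lay close together and well above sample 13. The difference was 2.59 ± 0.35, 6.04-fold, with adjusted p = 2.50e-04. Cdca4 gave 6.78, 6.25, 5.84 and 6.05 against 7.06, 6.50, 6.97, 7.17 and 6.98 (0.71 ± 0.22, adjusted p = 0.0751). Neither it, Ube2t nor Cdca7l was called.

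Promoter sequences are shown for 6 genes that rose at P8, because genes transcribed in G2 and mitosis are known to carry CCAAT boxes, bound by NF-Y, and cell cycle genes homology regions, with the core TTTGAA, bound by the DREAM and MuvB complexes. RefSeq windows (assembly GRCm38.p6, 250 bases before to 50 bases after a gene's start) were found for 51 of the 59 genes. Capitals mark CCAAT or TTTGAA on either strand (ATTGG or TTCAAA when read on the complement). The windows are chr2:164769679-164769978 (plus strand) for Ube2c, chr13:100786437-100786736 (minus) for Ccnb1, chr9:70421505-70421804 (minus) for Ccnb2, chr10:69352863-69353162 (minus) for Cdk1, chr11:99024140-99024439 (minus) for Top2a and chr11:43425932-43426231 (minus) for Pttg1.
Ube2c: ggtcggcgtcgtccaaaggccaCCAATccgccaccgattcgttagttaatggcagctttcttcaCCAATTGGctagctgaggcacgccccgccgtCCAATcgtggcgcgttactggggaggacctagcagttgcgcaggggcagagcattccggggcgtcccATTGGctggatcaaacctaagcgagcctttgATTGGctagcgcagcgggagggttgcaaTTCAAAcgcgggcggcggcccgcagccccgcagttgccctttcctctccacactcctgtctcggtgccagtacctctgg
Ccnb1: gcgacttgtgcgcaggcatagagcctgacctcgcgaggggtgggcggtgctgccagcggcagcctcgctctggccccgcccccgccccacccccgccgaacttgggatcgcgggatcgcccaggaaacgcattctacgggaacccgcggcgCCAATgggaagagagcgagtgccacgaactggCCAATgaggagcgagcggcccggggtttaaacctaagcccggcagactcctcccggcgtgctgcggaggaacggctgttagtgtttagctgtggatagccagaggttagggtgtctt
Ccnb2: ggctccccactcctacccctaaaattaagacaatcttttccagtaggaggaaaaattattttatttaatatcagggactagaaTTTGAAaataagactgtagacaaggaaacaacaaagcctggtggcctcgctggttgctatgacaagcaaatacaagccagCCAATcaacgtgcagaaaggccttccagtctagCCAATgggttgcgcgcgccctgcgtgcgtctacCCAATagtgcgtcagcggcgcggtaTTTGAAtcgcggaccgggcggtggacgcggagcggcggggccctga
Cdk1: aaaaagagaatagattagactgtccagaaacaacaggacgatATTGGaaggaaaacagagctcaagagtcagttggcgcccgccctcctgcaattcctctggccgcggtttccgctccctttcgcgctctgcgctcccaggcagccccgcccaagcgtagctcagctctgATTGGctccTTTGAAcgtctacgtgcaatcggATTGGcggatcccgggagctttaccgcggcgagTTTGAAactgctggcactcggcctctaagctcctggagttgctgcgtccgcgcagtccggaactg
Top2a: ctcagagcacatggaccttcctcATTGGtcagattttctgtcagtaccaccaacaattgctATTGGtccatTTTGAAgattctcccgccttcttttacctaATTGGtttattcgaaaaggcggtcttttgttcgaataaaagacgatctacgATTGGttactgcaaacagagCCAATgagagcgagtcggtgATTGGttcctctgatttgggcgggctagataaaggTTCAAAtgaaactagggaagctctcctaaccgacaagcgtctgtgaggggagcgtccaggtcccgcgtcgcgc
Pttg1: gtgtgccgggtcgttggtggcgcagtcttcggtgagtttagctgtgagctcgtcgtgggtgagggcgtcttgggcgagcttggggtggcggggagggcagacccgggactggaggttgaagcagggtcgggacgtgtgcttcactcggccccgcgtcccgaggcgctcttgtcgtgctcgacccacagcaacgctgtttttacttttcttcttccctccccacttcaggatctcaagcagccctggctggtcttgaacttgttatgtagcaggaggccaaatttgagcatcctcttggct

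CCAAT occurred 6 times in the Ube2c window, 2 of these matches overlapping on opposite strands, and TTTGAA occurred once. Ccnb2 and Cdk1 each had 3 CCAAT and 2 TTTGAA matches, Top2a had 6 and 2, Ccnb1 had 2 CCAAT matches and no TTTGAA, and the Pttg1 window had neither. Shares were counted per gene over the 51 genes with windows (54 windows in all), and any window holding the motif sufficed. CCAAT was found for 35 genes (68.6%), against 43.7% of the 1943 other named genes of the table and 41.1% of all 27025 genes with a window. TTTGAA was found for 32 genes (62.7%), against 15.3% and 20.2%. Both motifs together occurred in 26 genes (51.0%), against 6.90% and 7.97%. The E2F motif TTTCCCGC, searched on both strands, was found for 3 genes (5.88%), against 1.90% and 1.24%. These are matches of letters in fixed windows and were not tested as binding sites.

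At P30 no gene of the set was called between hypoxia and normoxia, and 0% of the probes in the table were called in either direction. At an unadjusted p of at most 0.05, 8 genes (13.6%) were lower and none higher, where 8.97% of the table was lower and 4.97% higher. They are the same 8 genes that are in the authors' deposited P30 list, where all 8 are lower in hypoxia and 46.13% of the listed probes are. Probes listed as lower in that deposited list of the authors make up 8.23% of the value table. The count of 8 is given as a description, with no test of the set. The median difference over the 59 genes was -0.30, from -1.22 to 0.54, with 47 genes lower and 12 higher (59.65% of the table was lower, median -0.10). After quantile normalization or centring, 42 genes were lower.

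Groups at P30 failed to overlap in 2 of the 59 genes, both lower in hypoxia, a share close to the 3.4% of the table. Ube2c gave 5.12, 5.29, 4.88 and 5.22 in normoxic samples 2 to 5 and 3.74, 3.89, 4.68, 4.14 and 4.41 in hypoxic samples 1 to 5, a difference of -0.96 (unadjusted p = 0.0182). Tpx2 gave 5.47, 6.12, 6.26 and 5.79 against 5.18, 5.18, 4.90, 4.34 and 4.65, a difference of -1.06 (unadjusted p = 0.00625). Most P30 signals were dim, with a mean under 5, the 20th percentile of all values. This held for 41 of the 59 genes in P30 hypoxia and 33 in P30 normoxia, against 4 in P8 hypoxia and 12 in P8 normoxia. No detection call was used here, so it was not tested which of these probes were above background.

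The effect of hypoxia, taken with its sign as hypoxia minus normoxia, was higher at P8 than at P30 in all 59 genes. The median difference, P8 minus P30, was 1.58 on the log2 scale (0.31 over the table). It does not compare the sizes of the 2 effects without their signs. For this difference 13 genes were called, beside 4.34% of the table (0.919% of the array counted as above). They were Ube2c, Ccnb1, Cdca3, Tpx2, Ccna2, Ccnb2, Aurka, Plk1, Nuf2, Kif20a, Cenpi, Cdc20 and Cenpn. Ube2c had the largest, 4.15 ± 0.53 (adjusted p = 3.96e-04), followed by Ccna2 at 3.70 ± 0.69 (0.0112). Calls for Ube2c, Ccnb1, Ccnb2, Ccna2, Cdca3, Tpx2 and Plk1 held under all 24 alternatives. Of the other calls, that for Aurka was lost under 2 alternatives, those for Kif20a and Cenpi under 8 each, that for Cdc20 under 16, that for Cenpn under 18 and that for Nuf2 under 2. After quantile normalization or centring, 57 of the 59 differences were above 0. Without sample 13 the count was 37, beside 5.99% of the table. All 59 genes were listed for a difference at P8, which is part of this contrast. That listing favours a sizeable effect at P8, so these counts are a description and no test of the set.

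With age in normal air, 28 of the 59 genes were called lower at P30 than at P8, where 16.3% of the table was called lower (3.46% of the array). None was called higher, 56 had a lower mean, and the median difference was -1.14 (2.20-fold lower, against -0.10 over the table). In 28 genes every normoxic P30 sample lay below every normoxic P8 sample, as in 21.3% of the table. Without sample 13 the count fell to 16 genes, all of them among the 28, and the median to -0.75, with 12.6% of the table called lower. It was 17 without normoxic P30 sample 2, beside 11.2% of the table.

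Ube2c decreased most in normoxia, from 8.11 to 10.38 in P8 samples to 4.88 to 5.29 in P30 samples (-3.76 ± 0.39, 13.5-fold lower, adjusted p = 4.65e-06). Ccna2 was at 6.08, 7.42, 6.53 and 6.48 in normoxic P30 samples 2 to 5, below every P8 sample (-3.12 ± 0.51, adjusted p = 6.11e-04). Cdk1 was at 2.90, 3.41, 3.14 and 2.60, again below all of P8 (-2.90 ± 0.42, adjusted p = 1.80e-04). Plk1 (-2.28), Bub1b (-2.26), Cdca3 (-2.12), Prc1 (-2.06) and Bub1 (-2.03) were called as well. Cenpa, not called for hypoxia at P8, was called here (-1.44 ± 0.31, adjusted p = 0.00575).

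With age in hypoxia, 58 of the 59 genes were called lower at P30, where 43.9% of the table was called lower (9.31% of the array). The exception was Cdca7l (-0.73 ± 0.30, adjusted p = 0.148). The median difference was -2.85 (7.23-fold lower, against -0.50 over the table), and the hypoxic P30 samples lay below every hypoxic P8 sample in 57 genes, as in 35.3% of the table. All 28 genes called with age in normoxia were called here too, and the decrease was larger in hypoxia in all 59 genes. That last count is the same quantity as the difference between the effects at P8 and P30, and both age comparisons share their P8 samples with the contrast through which the genes were listed.

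Ube2c went from 11.27 to 12.68 in hypoxic P8 samples to 3.74 to 4.68 in hypoxic P30 samples, a difference of -7.91 ± 0.35 (241-fold lower, adjusted p = 1.57e-11). Its hypoxic P30 signals are among those under the 20th percentile of the table, where the size of a fold rests on dim values. Ccna2 was at 5.92, 4.47, 6.15, 5.96 and 4.69 in hypoxic P30 samples 1 to 5 (-6.82 ± 0.46, 113-fold lower, adjusted p = 5.22e-09). Plk1 was at 4.93, 5.16, 4.60, 4.37 and 4.55 (-4.97 ± 0.36, adjusted p = 1.30e-08), and Ccnb1 at 4.51, 4.55, 4.74, 5.12 and 5.51 (-4.10 ± 0.31, adjusted p = 1.57e-08). By role, the median decrease was largest for the cyclins and CDK1 (-4.36) and smallest for the group of 4 with no single role (-1.13).

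**Figure D3:**
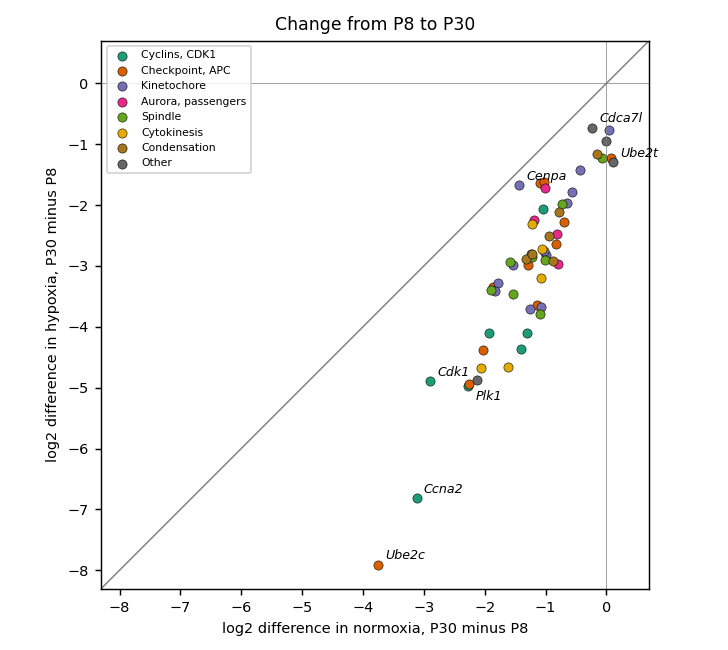
Change from P8 to P30 in hypoxia (vertical axis) against that in normoxia (horizontal axis), as log2 differences, 1 point per gene for 58 of the 59 genes, coloured by role, with the line of equal change. All 58 points lie below the line, Ube2c being farthest at -3.76 and -7.91, and Cdca7l has the smallest change in hypoxia at -0.73.

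Other genes of the cell cycle were taken from 4 lists, whose genes likewise have a name here only through the authors' lists. At P8, 15.2% of the table was called higher and 5.57% lower. Named probes had already differed between hypoxia and normoxia in those lists, so the counts are a description. Of 61 other mitosis genes, 28 had values, and 14 were called higher and none lower in hypoxia at P8 (median 1.27), with the largest statistics for Troap (1.91) and Arhgap11a (1.71). Of 45 DNA replication genes, 17 had values and 9 were called higher, none lower (median 1.35), led by Rrm2 (2.92), a subunit of ribonucleotide reductase, and Fen1 (1.39), a flap endonuclease. Of 28 genes for G1 cyclins, E2F and pocket proteins, 16 had values, 9 were called higher, among them Myc (2.19) and E2f8 (1.85), and 2 lower, Mycn (-0.90) and E2f5 (-0.98). None of these genes was called at P30.

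Inhibitors of cyclin-dependent kinases and other genes of cell cycle exit were a list of 23, of which 6 had values. At P8, 3 were called higher in hypoxia and 1 lower, beside 15.2% and 5.57% of the table. Cdkn1a, which encodes the inhibitor p21, had the largest difference, 3.24 ± 0.53 (9.43-fold, adjusted p = 0.00119), followed by Cdkn2d at 1.32. Cdkn3, a phosphatase that acts on CDK1 and CDK2 and is itself transcribed in G2 and mitosis, was higher by 1.22, and Cdkn2a was the 1 called lower, at -0.85. At P30 no gene of this list was called.

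Marker genes of other cell types, too, have a name here only through the authors' lists. Those with values had therefore already differed between hypoxia and normoxia at P8 or P30. Their counts at P8 are a description, where 15.2% of the table was called higher and 5.57% lower. Of 16 erythroid markers, 6 had values and 5 were called higher in hypoxia, and their median signal was 4.58, 4.68, 5.63 and 7.53 in normoxic samples 13, 22, 23 and 24 against 8.10 to 9.63 in the hypoxic samples. Of 11 macrophage markers, 7 had values and 4 were called higher. Their median was 4.60 in sample 13, 5.24 to 5.70 in the other normoxic samples and 5.74 to 7.57 in hypoxia. Neutrophil markers (3 of 4 with values called higher, medians per sample of 3.37 to 4.23 in normoxia against 4.69 to 6.86 in hypoxia) and endothelial markers (2 of 2 called higher, 11.3 to 11.7 against 12.6 to 13.6) were higher too. Only 1 lymphocyte marker, Rag2, had values, and it was called lower. Defining markers with no value here were not analysed. Their part in the differences of the mitosis genes was not tested.

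Sample 13, with the highest normoxic median of the mitosis genes, had the lowest medians of the erythroid and macrophage markers among all P8 samples. Cardiomyocyte markers with values (Ckmt2, Ryr2 and Ttn, of 11) were called lower in hypoxia at P8, 3 of 3. Their medians were 12.52 to 14.41 against 14.88 to 15.93 in normoxia and 16.81 to 18.18 at P30. The other markers of that list have no value here, so these 3 do not stand for cardiomyocyte markers as a class. The tissue is labelled heart, and these markers of heart muscle were bright in all 18 samples. Sample 13 had 15.12 for them, inside the normoxic range. Of 7 fibroblast markers, 3 had values and 2 were called lower, with medians of 12.30 to 12.86 in hypoxia and of at least 13.67 in every normoxic P8 sample.

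**Figure D4:**
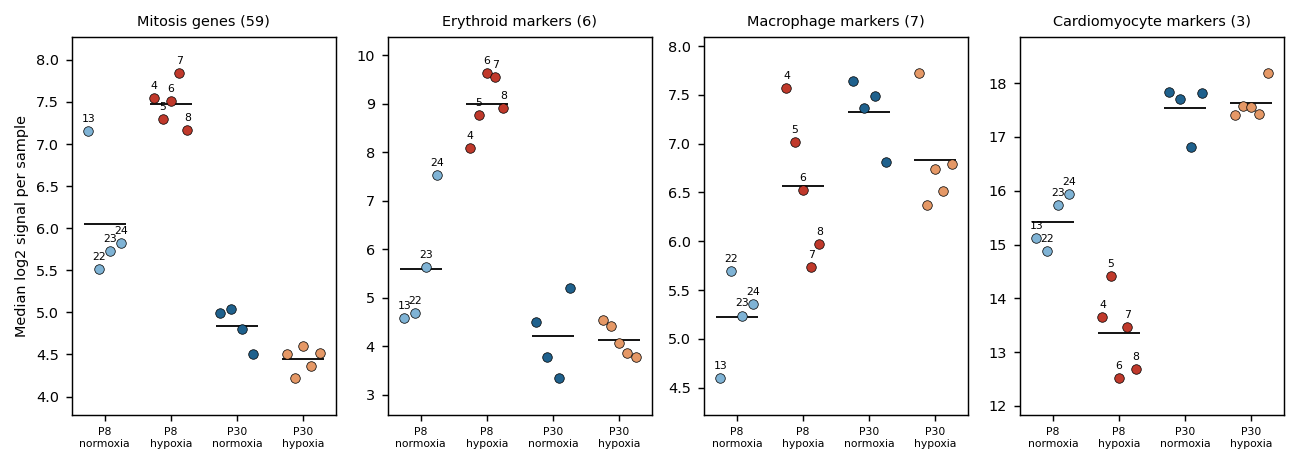
Median log2 signal per sample for the 59 mitosis genes and for the erythroid, macrophage and cardiomyocyte markers with values (points, samples, with sample numbers at P8; bars, group means). Normoxic sample 13 is at 7.15 for the mitosis genes, beside the hypoxic samples, and at 4.58 and 4.60 for the erythroid and macrophage markers, the lowest of all P8 samples. Both marker medians are under 5, the 20th percentile of all values.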

How the data were processed

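Heart RNA of 18 samples was labelled with biotin and hybridised to Clariom S arrays, per the labels' protocols, and only RNA above a set integrity was used. The deposited table holds log2 signals normalized by the authors, by a method the labels do not state. Affymetrix Expression Console appears in the submitters' processing notes. It covers 4704 probes (21.2% of the array), in each of which the group means span at least 0.46. The authors' deposited gene lists give a p-value and q-value per probe, and a signed fold change (a score, negative where hypoxia is lower). Array medians were 7.38 to 8.07, and the number of arrays limits the precision.

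The 4 groups were taken from the labels and fitted together with limma 3.58.1 in R 4.3.3 by lmFit and eBayes, with 14 residual and 5.98 prior degrees of freedom and no block. P-values were adjusted by Benjamini-Hochberg over 22206 tests, the size of the array as bounded (22204 to 22208) by the p-values, q-values and ranks of the authors' deposited P30 list, with a threshold of 0.05. A probe was named only through the gene lists: 2568 have 1 symbol, 105 several and 2031 none here. Members and lists were chosen with earlier results of these data known. Named genes were, per role, the 2 with the largest P8 statistic, 8 fixed genes and the 6 largest statistics of the difference between ages; other genes are named as singled out after their values were seen. On simulated data of 22206 probes, limma recovered 74% of log2 changes of 2 and 6% of changes of 1 at P8. For the difference between ages it recovered 23% and 0%, and 2.44% of the P8 calls were of unchanged probes. The simulation changed few probes and gave every group the same spread. In the data the median SD of the mitosis genes was 0.862 in P8 normoxia and 0.429 in P8 hypoxia, so these rates need not hold for them. Equal sample numbers did not mark shared deviations between groups (correlations of -0.17 to 0.07 between the P30 groups, and of -0.21 for number 4 and 0.18 for number 5 between P8 and P30 hypoxia), so samples were not paired. Alternatives were quantile normalization, centring of arrays, leaving out dim probes, a fit of 2 groups, adjustment over the table alone, trend and robust eBayes, a replicate block and leaving out samples. Enrichment tables were not used. Mki67 was not analysed here. One member is not reported here by itself and is left out of the plots of single genes.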

Additional observations from a re-analysis of the deposited data

Results flagged for a closer look

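The effect of hypoxia differed between P8 and P30 in 13 mitosis genes (limma on the difference itself, adjusted p of at most 0.05). For comparison, 4.34% of the table was called higher for this difference. It contains the P8 contrast through which all 59 genes were listed, so the count is a description and no test of the set. The difference of the effects, in log2 units, was 4.15 for Ube2c, 3.70 for Ccna2, 3.03 for Kif20a, 2.96 for Ccnb2, 2.79 for Ccnb1, 2.75 for Cdca3, 2.70 for Plk1, 2.69 for Tpx2, 2.59 for Cenpi, 2.49 for Cdc20, 2.45 for Nuf2, 2.17 for Aurka and 1.84 for Cenpn. Of the 59 genes, 59 were higher at P8 and 47 were lower at P30. In each of the 13 except Cenpn, which had 0.28 at P30, hypoxia was above normoxia at P8 and below it at P30.

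One single value stood far from its group. Kif20a was at 4.37 in normoxic P30 sample 5 and at 5.39, 5.33 and 5.30 in samples 2, 3 and 4. It was the only such value among 92 groups examined, where chance alone is expected to flag about 1 in 20.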

How the results depend on the processing

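All 59 genes stayed higher in hypoxia at P8 after quantile normalization, after centring the arrays and without sample 13, and all 59 stayed lower at P30 than at P8 in hypoxia. The median difference at P8, 1.32 (0.18 over the table), was 0.99 after quantile normalization (-0.08 over the table). After centring it was 0.95 (-0.19 over the table). Percentages in brackets are the shares of the table called in the same direction in the same fit. The count at P8, 29 (15.2%), was 17 after quantile normalization (7.21%) and 17 after centring (6.85%). It was 13 with only the P8 groups fitted (6.99%) and 53 when adjusted over the value table alone (27.2%). Leaving out 1 sample gave 16 to 47 genes (9.18% to 15.8%), with medians of 1.21 to 1.74. The count was lowest without normoxic sample 22 (10.1%) and highest without sample 13 (13.3%). For the difference between ages the count, 13 (4.34%), was 7 after quantile normalization (1.85%, median 1.15) and 8 after centring (2%, median 1.06). It was 41 over the table alone (18.3%) and 9 to 37 when 1 sample was left out (2.51% to 6.91%, medians 1.43 to 2.01). With age in normoxia, 28 (16.3%) became 15 in the fit of 2 groups (9.76%) and 43 over the table alone (29.3%). With 1 sample left out it was 16 to 28 (10.4% to 16.3%, medians -1.37 to -0.75). With age in hypoxia, 58 (43.9%) became 57 to 59 with 1 sample left out (39.8% to 44.1%). It was 50 after centring (24.3%), which gave a median of -2.38. At P30 the count was 0 in every alternative run, beside at most 0.0425% of the table called lower. The median there was -0.43 to -0.21 with 1 sample left out. The cause of these changes was not tested, except that fewer samples and fewer tests enter by construction. In single named genes, 2019 alternative values kept their side of the threshold, 135 lost a call, 40 gained one and none changed sign after a call.

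A replicate block on equal sample numbers, which are not known to pair the samples, gave 0 genes and a median of -0.33 at P30. With age in hypoxia it gave 45 genes, beside 15.6% of the table, with a median of -2.83 and without the calls for Cdca4 and Cenpa. An alternative probe per gene was not run, because each gene has 1 probe. Most P30 signals were dim, and the normalization and the selection of probes in the table are not given in the sources used here, which limits what P30 values can show. P-values assume that samples are independent.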
